A study of Homo sapiens with 90 samples.

Results

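The ABC drug and lipid efflux pumps were followed in HepaRG cells, a human liver line whose cultures hold hepatocyte-like and biliary-like cells. Members were the genes ABCB1, ABCB4, ABCC2, ABCC3, ABCC4, ABCC6, ABCG2, ABCA1, ABCG5 and ABCG8, each measured by every probe set whose only gene symbol in the platform annotation was that gene. This gave 22 probe sets for 9 of the 10 genes, among 40920 probe sets with a single symbol for 19774 genes. ABCC6 had no such probe set and was not analysed here.

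The cultures received the triazole fungicide fenbuconazole, the imidazole fungicide imazalil or the chlorophenoxy herbicide 2,4-D (2,4-dichlorophenoxyacetic acid) for 24 h, each at 9 concentrations from 0.001 to 10 µM with 3 arrays per concentration. All cultures held 0.2% DMSO, and 3 arrays of cells given DMSO alone served all 3 chemicals. Values were log2 intensities after RMA (robust multi-array average), normalized by the authors for each chemical separately with the same 3 DMSO arrays, which therefore appear once in each of the 3 sets of 30 arrays. The arrays of a group carried the codes P1, P2 and P3 in the labels, and values are listed below in that order.

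ABC transporters use ATP to move substrates across membranes, and in hepatocytes they carry drugs, conjugates, bile lipids and cholesterol out of the cell. ABCB1 (P-glycoprotein), ABCG2 (breast cancer resistance protein) and ABCC2 (MRP2) sit in the membrane facing the bile canaliculus, whereas ABCC3 and ABCC4 (MRP3 and MRP4) export conjugates and bile acids towards blood. ABCB4 delivers phosphatidylcholine to bile, ABCA1 loads cholesterol and phospholipid onto apolipoprotein A-I, and ABCG5 and ABCG8 form a heterodimer that secretes sterols into bile.

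ABCG5 and ABCG8 are neighbours read in opposite directions (GRCh38.p14, chr2:43806211-43839231 and chr2:43838971-43882988), with start sites at 43838839 for ABCG5 and 43838971 for ABCG8 and 131 bases between them. ABCB1 lies at chr7:87503017-87713295 and ABCG2 at chr4:88090264-88231626. The other measured members lie at chr7:87365896-87476027 (ABCB4), chr10:99782640-99852594 (ABCC2), chr17:50634881-50692253 (ABCC3), chr13:95019835-95301451 (ABCC4) and chr9:104781006-104928155 (ABCA1). The stretch between the ABCG5 and ABCG8 start sites and the 250 bases before 1 start site each of ABCB1 and ABCG2 are shown because ABCB1, ABCG2 and ABCG5 were among the genes called at 10 µM. The bases come from RefSeq (GRCh38.p14) and run 5′ to 3′ on the stated strand. Capitals mark matches on either strand to short motifs. In the first stretch the motif is GATAA, known as the GATA box. In the others capitals mark the CCAAT box and the core of the xenobiotic response element, GCGTG.
ABCG5-ABCG8, chr2:43838840-43838970, plus strand: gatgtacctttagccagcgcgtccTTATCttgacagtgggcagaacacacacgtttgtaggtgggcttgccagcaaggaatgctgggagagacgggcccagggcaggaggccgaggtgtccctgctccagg
ABCB1, chr7:87600885-87601134, minus strand: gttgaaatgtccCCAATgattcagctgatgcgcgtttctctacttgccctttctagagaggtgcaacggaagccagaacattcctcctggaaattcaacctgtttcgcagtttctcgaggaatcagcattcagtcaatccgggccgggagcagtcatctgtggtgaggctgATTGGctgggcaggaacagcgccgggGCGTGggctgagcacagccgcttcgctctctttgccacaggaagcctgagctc
ABCG2, chr4:88158910-88159159, minus strand: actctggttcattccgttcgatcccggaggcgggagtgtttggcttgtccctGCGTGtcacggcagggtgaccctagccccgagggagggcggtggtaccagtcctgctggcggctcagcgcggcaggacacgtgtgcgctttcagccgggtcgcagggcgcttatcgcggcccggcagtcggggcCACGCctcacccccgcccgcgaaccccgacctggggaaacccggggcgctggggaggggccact

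The shared ABCG5-ABCG8 stretch held 1 match to GATAA, the ABCB1 window 2 matches to CCAAT and 1 to GCGTG, and the ABCG2 window 2 matches to GCGTG, with 2 to the GC box and 1 to GATAA left in lower case. Of 35116 windows of 250 bases before start sites, 20.4% held GATAA, 32% CCAAT and 32.2% GCGTG, so each match is a common one and is given as a description. The other motifs searched were the GC box (GGGCGG), found in 42.6% of the windows, and 2 nuclear receptor half-sites. Of these AGGTCA was found in 12.1% of the windows and the PXR type, AGTTCA, in 8.8%. Among member windows not printed here, AGTTCA lay in another ABCB1 window (chr7:87713296-87713545), the ABCA1 window and an ABCC6 window. AGGTCA lay in another ABCG2 window (chr4:88158640-88158889). The ABCC2 window held none of the 6. Windows were found for 8 of the 10 members, ABCB4 and ABCC3 having none.

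The arrays carried hepatocyte transcripts. All 10 hepatocyte markers (ALB, APOA1 and others) lay above the median of all probe set means, with a list mean of 11.39 to 11.84 log2 over the arrays. Of the biliary markers 6 of 7 were measured and 4 lay above that median. So did 6 of 7 mesenchyme, 3 of 5 endothelium and 2 of 5 immune markers, so lying above that median does not tell these cell types apart. Of the 22 member probe sets, 19 lay above it (2.84) and 3 below, 1 of ABCC4 and 2 of ABCA1. A further probe set named both ABCB4 and ABCB1 and was left out. The same 3 DMSO arrays differed between the RMA sets by up to 0.47 log2 for ABCG2, 0.10 for ABCB1 209993_PM_at and 0.28 for ABCB1 243951_PM_at, so each treated value is set against DMSO of its own set.

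Against DMSO at 10 µM, 3 drug export pumps passed as higher with imazalil. With fenbuconazole 1 passed as higher and a sterol pump, ABCG5, as lower, whereas no member passed the test with 2,4-D. ABCG5 was lower in value with imazalil too (-0.61 log2, against -0.80 with fenbuconazole), without passing. Imazalil gave 4 of the 22 member probe sets higher and 0 lower (limma, adjusted p below 0.05 over 54715 probe sets), where 0.406% of all probe sets passed (0.254% higher, 0.152% lower). Fenbuconazole gave 1 higher and 1 lower, where 0.345% of all probe sets passed (0.256% higher, 0.0896% lower). For 2,4-D the count was 0 of 22, with 0% called among all probe sets. At an unadjusted p below 0.05 the member counts were 10 with fenbuconazole, 10 with imazalil and 1 with 2,4-D, where 6.5%, 8.32% and 5.55% of all probe sets passed.

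**Figure D1:**
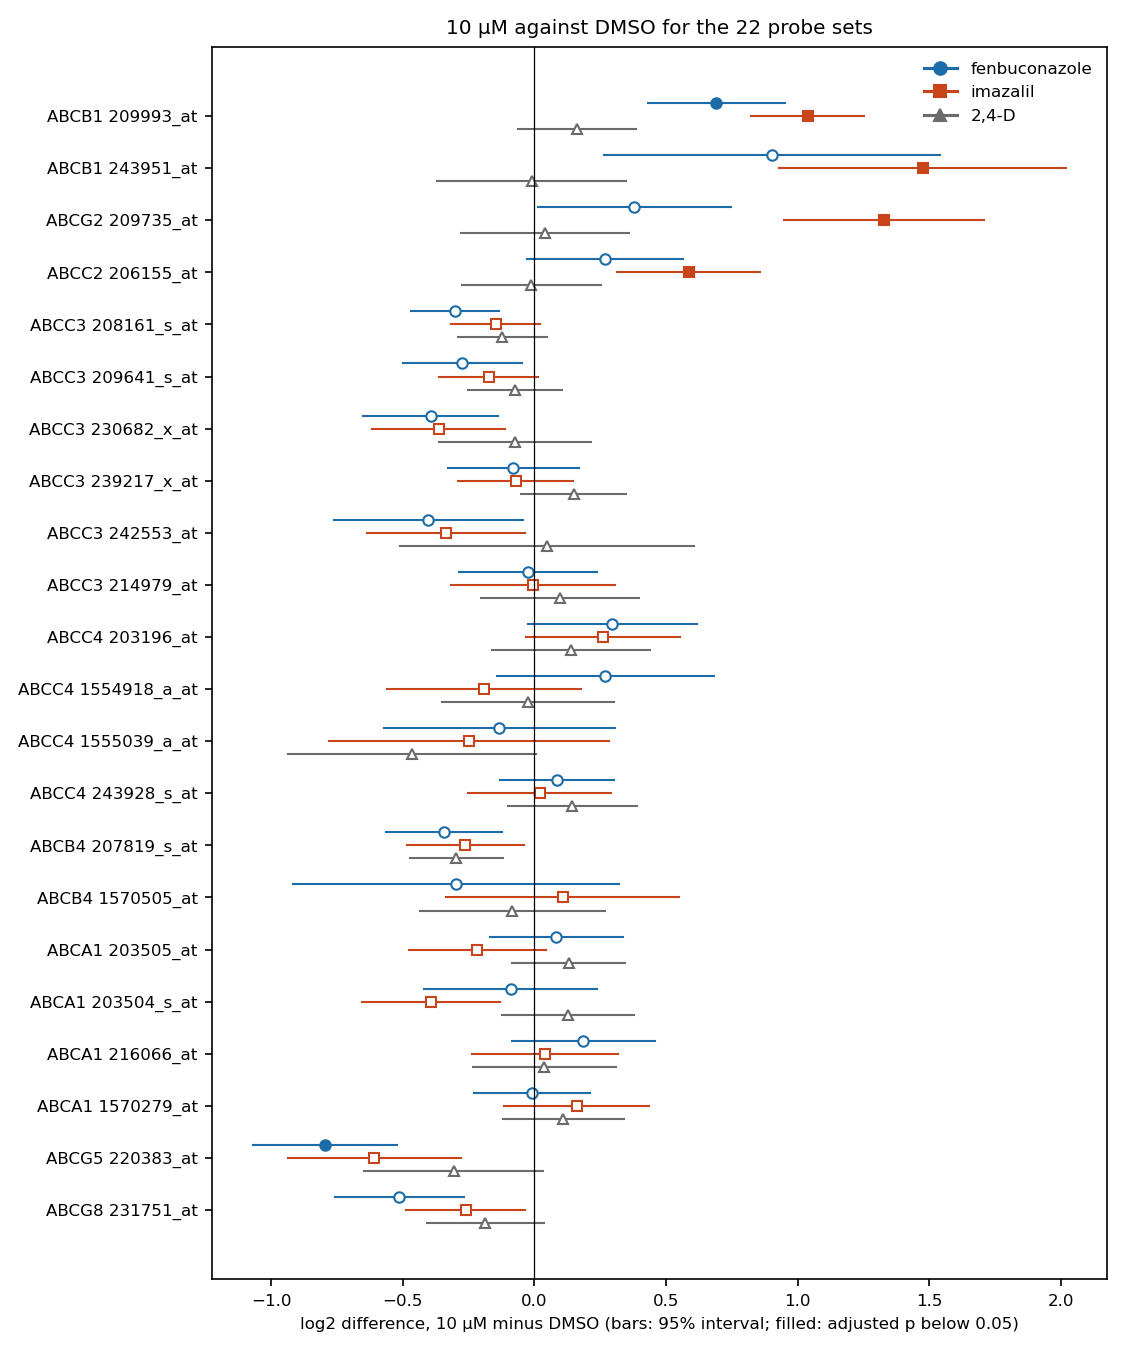
Log2 difference between 10 µM and DMSO for the 22 member probe sets, by chemical, with 95% confidence intervals from limma; filled points passed an adjusted p of 0.05. The 2 ABCB1 probe sets, ABCG2 and ABCC2 passed with imazalil, ABCB1 209993_PM_at and ABCG5 with fenbuconazole, and none with 2,4-D.

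ABCB1, which exports a broad range of drugs, was higher with both fungicides. Its probe set 209993_PM_at read 9.35, 9.26 and 9.25 log2 after 10 µM imazalil, against 8.36, 8.27 and 8.12 in DMSO. Every treated array was above every DMSO array, and the difference was 1.04 ± 0.10 (log2, SE), a level 2.05 times that of DMSO (limma, adjusted p = 4.76e-07). The call held under all 15 processing alternatives tried, with differences of 0.97 to 1.09.

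Fenbuconazole gave a smaller value for the same probe set. ABCB1 read 9.01, 9.11 and 8.77 log2 at 10 µM, against 8.38, 8.32 and 8.11 in DMSO, again without overlap. The difference was 0.69 ± 0.13 (SE), a level 1.61 times that of DMSO (limma, adjusted p = 0.00497). This call was lost when all P1 arrays (adjusted p = 0.111), all P2 arrays (0.713), the P2 array at 10 µM (0.0741) or the P3 DMSO array (0.0581) was left out. With 2,4-D, ABCB1 read 8.53, 8.59 and 8.34 log2 at 10 µM, against 8.45, 8.35 and 8.16 in DMSO. These values overlapped, and the difference was 0.16 (95% interval -0.06 to 0.39, limma, adjusted p = 0.948).

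The other ABCB1 probe set, 243951_PM_at, was dimmer and more scattered. It read 5.82, 5.45 and 5.70 log2 after 10 µM imazalil, against 4.39, 3.63 and 4.52 in DMSO, with no overlap. The difference was 1.48 ± 0.27 (SE, limma, adjusted p = 0.00454), and the call was lost without all P1 arrays (adjusted p = 0.0680), all P2 arrays (0.318) or the P2 DMSO array (0.0717). After 10 µM fenbuconazole it read 6.02, 4.92 and 4.69 log2, against 4.43, 3.89 and 4.59 in DMSO. The P1 array was far above the other two, and the difference of 0.90 ± 0.31 (SE) did not pass (limma, adjusted p = 0.444).

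ABCG2, which exports sulfated conjugates and drugs, read 6.63, 6.82 and 6.25 log2 after 10 µM imazalil, against 5.49, 5.48 and 4.75 in DMSO. All treated arrays lay above all DMSO arrays, and the P3 array was the lowest in both groups. The difference was 1.33 ± 0.19 (SE), a level 2.51 times that of DMSO (limma, adjusted p = 0.000139). It was lost only without all P2 arrays (adjusted p = 0.0639), among the 15 alternatives. After 10 µM fenbuconazole ABCG2 read 5.75, 5.80 and 5.78 log2, against 5.36, 5.78 and 5.05 in DMSO, and the difference of 0.38 ± 0.18 (SE) did not pass (limma, adjusted p = 0.734). With 2,4-D the values were 5.71, 5.72 and 5.46 log2, against 5.63, 5.91 and 5.22 in DMSO, a difference of 0.04.

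ABCC2, which exports conjugates to bile, read 8.87, 8.70 and 8.59 log2 after 10 µM imazalil, against 8.30, 8.17 and 7.93 in DMSO. The groups did not overlap, and the difference was 0.59 ± 0.13 (SE, limma, adjusted p = 0.0418). This was the least stable of the imazalil calls: it held in 6 of 15 alternatives and was lost under quantile normalization (adjusted p = 0.0573), array weights (0.0673), without all P2 (0.748) or P3 arrays (0.327), without the P1 (0.240), P2 (0.137) or P3 array (0.0535) at 10 µM and without the P2 (0.129) or P3 DMSO array (0.191). ABCC2 read 8.50, 8.51 and 8.31 log2 after 10 µM fenbuconazole, against 8.33, 8.24 and 7.95 in DMSO (difference 0.27, limma, adjusted p = 0.827). With 2,4-D its difference was -0.01.

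**Figure D2:**
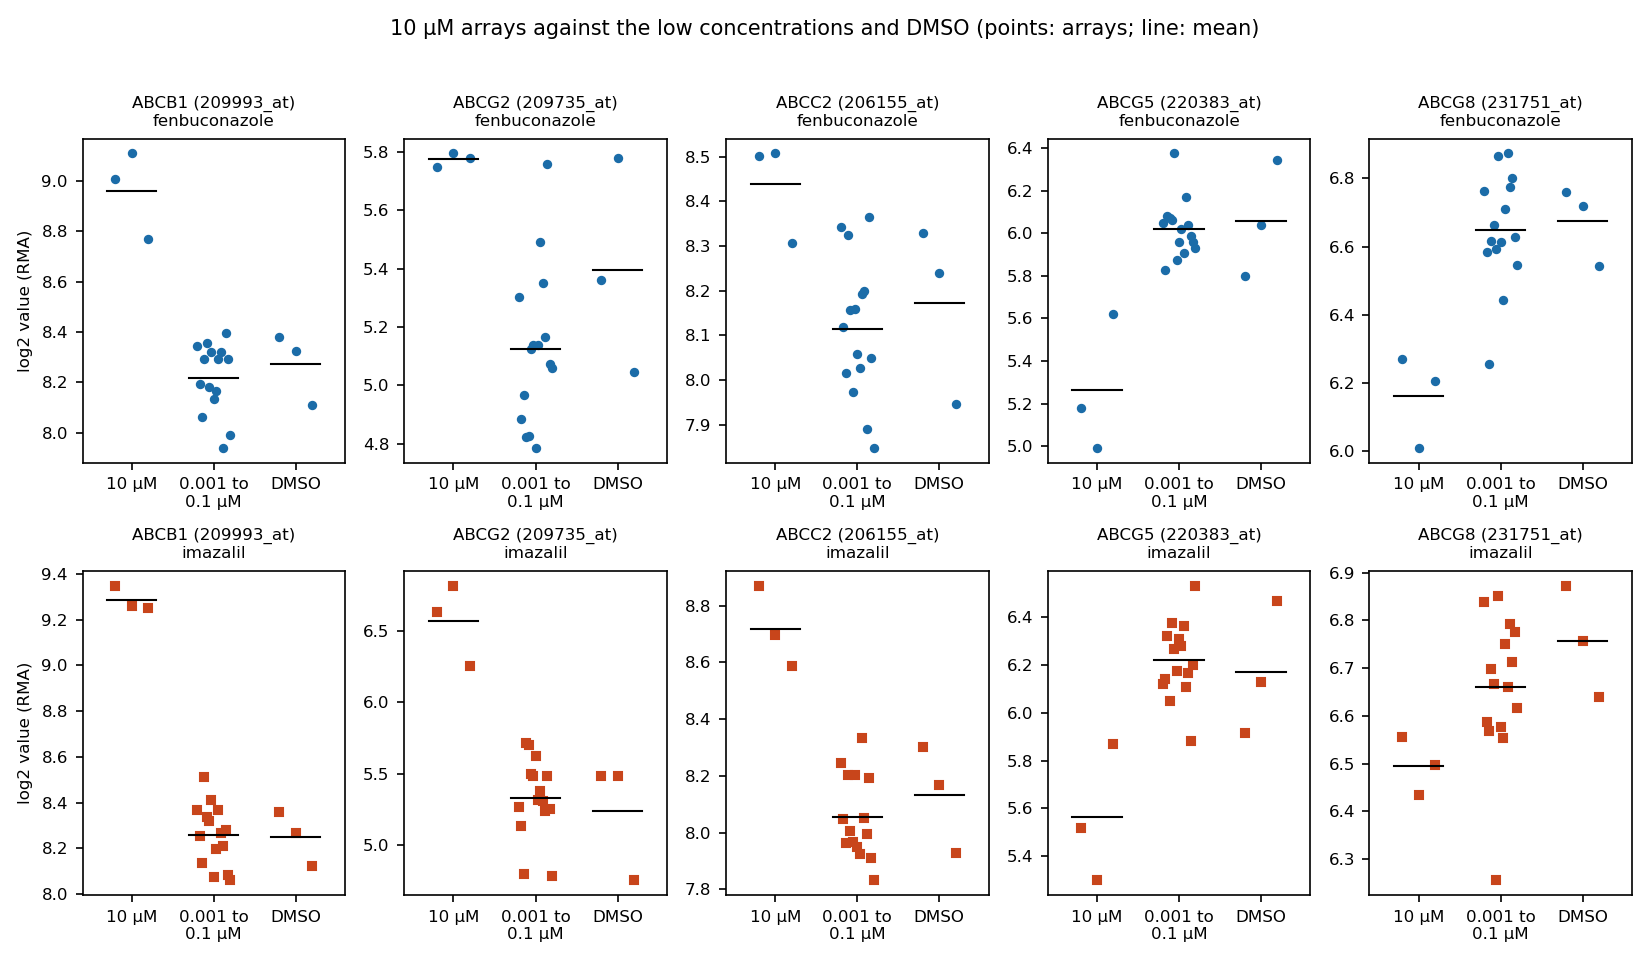
RMA log2 values of single arrays for ABCB1, ABCG2, ABCC2, ABCG5 and ABCG8, in fenbuconazole and imazalil sets, at 10 µM, at the 5 lowest concentrations and in DMSO. ABCB1 arrays at 10 µM lay above all DMSO arrays for both chemicals, and ABCG5 arrays at 10 µM lay below all DMSO arrays.

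Against DMSO the basolateral pumps did not pass in either direction. The 6 ABCC3 probe sets differed from DMSO by -0.40 to -0.02 log2 after 10 µM fenbuconazole and by -0.36 to -0.01 after imazalil. The main ABCC3 probe set, 208161_PM_s_at, read 9.40, 9.18 and 9.32 log2 after 10 µM fenbuconazole, against 9.57, 9.56 and 9.67 in DMSO, without overlap (difference -0.30, limma, adjusted p = 0.168). It passed with a trended and robust variance (adjusted p = 0.0247). For ABCC4, the 4 probe sets gave differences of -0.13 to 0.30 with fenbuconazole, -0.25 to 0.26 with imazalil and -0.47 to 0.14 with 2,4-D.

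ABCB4, the phospholipid pump of the canaliculus, was lower in value with every chemical. Its probe set 207819_PM_s_at read 7.90, 7.61 and 8.03 log2 after 10 µM fenbuconazole, against 8.23, 8.12 and 8.23 in DMSO (difference -0.34, limma, adjusted p = 0.326). It read 7.87, 7.70 and 8.05 after imazalil, against 8.19, 8.03 and 8.19 in DMSO (-0.26, adjusted p = 0.485). It read 7.91, 7.80 and 8.05 after 2,4-D, against 8.25, 8.14 and 8.26 in DMSO (-0.30, adjusted p = 0.663). The 3 sets share the same DMSO arrays, and P2 was the lowest treated array each time. The other ABCB4 probe set, 1570505_PM_at, gave differences of -0.30, 0.11 and -0.08.

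ABCG5 fell with fenbuconazole. It read 5.18, 4.99 and 5.62 log2 at 10 µM, against 5.80, 6.04 and 6.34 in DMSO, so all treated arrays lay below all DMSO arrays. The difference was -0.80 ± 0.13 (SE), a level 0.576 times that of DMSO (limma, adjusted p = 0.00152). The call was lost without all P1 arrays (adjusted p = 0.0544) or all P2 arrays (0.519). After 10 µM imazalil ABCG5 read 5.52, 5.30 and 5.87 log2, against 5.91, 6.13 and 6.47 in DMSO, again without overlap, but the difference of -0.61 ± 0.16 (SE) did not pass (limma, adjusted p = 0.116). It did pass when the P3 array at 10 µM was left out (adjusted p = 0.0422). With 2,4-D it read 5.62, 5.79 and 5.84, against 5.75, 6.05 and 6.37 in DMSO (-0.31, limma, adjusted p = 0.924).

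ABCG8, the partner of ABCG5, read 6.27, 6.01 and 6.20 log2 after 10 µM fenbuconazole, against 6.76, 6.72 and 6.54 in DMSO. The groups did not overlap, and the difference of -0.51 ± 0.12 (SE) lay just outside the threshold (limma, adjusted p = 0.0523), passing it under quantile normalization (0.0351), a filter on dim probe sets (0.0297) and a trended and robust variance (0.0352). With imazalil the difference was -0.26 (adjusted p = 0.504) and with 2,4-D -0.19 (adjusted p = 0.938).

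ABCA1 did not pass against DMSO. Its main probe set, 203505_PM_at, read 9.33, 9.17 and 9.06 log2 after 10 µM fenbuconazole, against 9.10, 9.10 and 9.11 in DMSO. It read 9.04, 8.54 and 8.92 after imazalil, against 9.04, 9.00 and 9.11 in DMSO. Probe set 203504_PM_s_at read 7.84, 7.44 and 7.67 after imazalil, against 8.04, 8.06 and 8.03 in DMSO, without overlap (difference -0.39 ± 0.13, SE, limma, adjusted p = 0.281).

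Over the 22 probe sets the 3 arrays at 10 µM lay wholly above or below DMSO for 11 with fenbuconazole (4 higher, 7 lower), 11 with imazalil (4 higher, 7 lower) and 1 with 2,4-D. Among all probe sets the shares were 10.2%, 12.5% and 7.78%. The member median differences were -0.05, -0.11 and 0.01 log2 for fenbuconazole, imazalil and 2,4-D. Below 10 µM, 0 of 176 member tests per chemical passed against DMSO, the lowest adjusted p being 0.244 for ABCB1 with 3 µM imazalil (limma). Among all probe sets 0.0366% passed at 3 µM and 0.00731% at 1 µM with imazalil, and at 3 µM 0.00366% with fenbuconazole and 0.00183% with 2,4-D.

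In the dose course the differences were widest at the top concentration for ABCB1, ABCG2 and ABCG5. After imazalil ABCB1 stood 0.14, 0.45 and 1.04 log2 above DMSO at 1, 3 and 10 µM, and after fenbuconazole 0.02, 0.13 and 0.69. ABCG2 stood 0.53, 0.58 and 1.33 above DMSO with imazalil, and 0.003 µM also gave 0.40 (adjusted p = 0.563), none of the values below 10 µM passing against DMSO. ABCG5 stood -0.24, -0.24 and -0.80 with fenbuconazole.

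**Figure D3:**
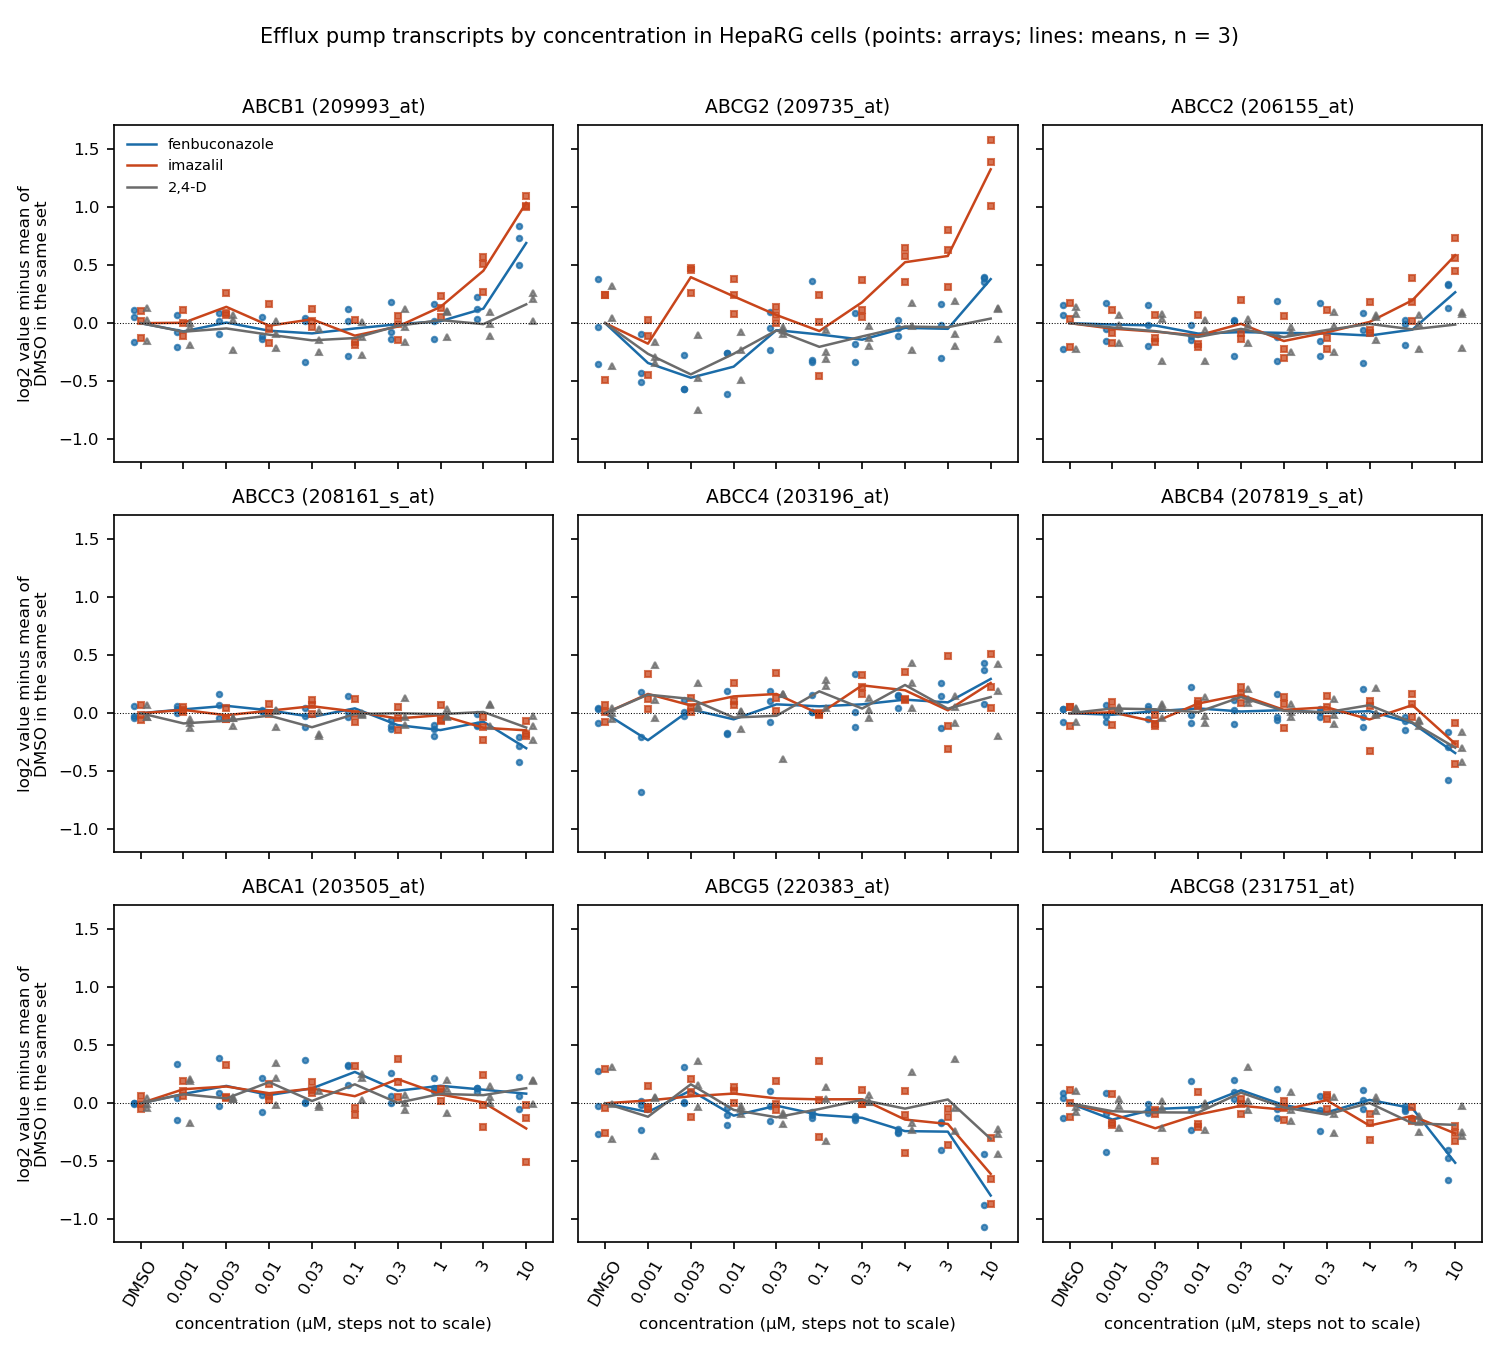
Log2 value minus the mean of DMSO in the same RMA set, for 1 probe set of each of 9 members, over DMSO and 9 concentrations of each chemical; points are single arrays and lines group means. ABCB1 reached 0.69 with fenbuconazole and 1.04 with imazalil at 10 µM, and 0.16 with 2,4-D.

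A test over all concentrations at once (limma, moderated F) called ABCB1 (adjusted p = 0.0297) and ABCG5 (0.0237) with fenbuconazole, where 0.232% of all probe sets passed, and ABCB1 (1.12e-06) and ABCG2 (0.000587) with imazalil, where 0.214% passed. It called 0 members with 2,4-D, where 0.00548% passed. Both fenbuconazole calls were lost without the P1, the P2 or the P3 arrays. With imazalil neither call held without P2, and ABCB1 alone held without P1.

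Because 3 DMSO arrays serve every comparison above, 10 µM was also set against the 15 arrays of the same chemical at 0.001 to 0.1 µM. Fenbuconazole then gave 2 member probe sets higher and 4 lower, where 1.06% of all probe sets passed (0.515% higher, 0.543% lower), and imazalil 4 higher and 1 lower, where 1.2% passed (0.599% higher, 0.598% lower). The 4 higher with imazalil belong to 3 genes, since ABCB1 has a pair of them. With 2,4-D 1 member probe set was lower, where 0.225% passed (0.168% lower).

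In the fenbuconazole set ABCB1 was 0.74 ± 0.10 above the pooled low concentrations (SE, limma, adjusted p = 2.57e-05), which ranged from 7.94 to 8.39 log2 with a median of 8.29. ABCG2 was 0.65 ± 0.14 above them (adjusted p = 0.0112), a call lost without all P2 or all P3 arrays or any single array at 10 µM (highest adjusted p = 0.455). Its difference from DMSO was smaller (0.38) and did not pass, so for ABCG2 the pooled arrays read lower than DMSO on average. ABCG5 was 0.76 below the pooled low concentrations (-0.76 ± 0.10, adjusted p = 4.15e-05), and its 3 arrays lay under the lowest of the 15 (5.83). The ABCB1 and ABCG5 calls were lost without all P2 arrays (adjusted p = 0.0582 and 0.0816).

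Smaller decreases were called for ABCG8 (-0.49 ± 0.09, SE, adjusted p = 0.00351), ABCC3 208161_PM_s_at (-0.33 ± 0.06, 0.00438) and ABCB4 207819_PM_s_at (-0.36 ± 0.08, 0.0229) in limma. Of the 3 ABCG8 arrays 2 lay below all 15. Each of these was lost without all P2 arrays and without the P2 array at 10 µM, which gave adjusted p of 0.132 for ABCG8, 0.171 for ABCC3 and 0.598 for ABCB4. The ABCC3 call was also lost without all P1 (0.0815) or all P3 arrays (0.177), and the ABCB4 call without all P1 arrays (0.232) or the P1 array at 10 µM (0.0653).

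In the imazalil set ABCB1 was 1.03 ± 0.08 (SE) above the pooled low concentrations (limma, adjusted p = 2.04e-09) and ABCG2 1.24 ± 0.14 (3.34e-06), and both held in all 12 alternatives. ABCC2 was 0.66 ± 0.10 above them (adjusted p = 0.000313), a call lost without all P2 arrays (0.170). ABCB1 243951_PM_at was 1.04 ± 0.21 above them (0.00582), lost without all P1, P2 or P3 arrays or the P1 array at 10 µM (highest adjusted p = 0.118). Its difference from DMSO was larger (1.48), so for this probe set the pooled arrays read higher than DMSO on average. ABCG5 fell by 0.66 against the pooled low concentrations (SE 0.12, adjusted p = 0.00356), lost without all P2 arrays (0.531) or the P2 array at 10 µM (0.138). Just outside the threshold lay ABCA1 203504_PM_s_at (-0.37, adjusted p = 0.0617), which passed under quantile normalization (0.0452), the filter on dim probe sets (0.0350) and a trended and robust variance (0.0162), and ABCB4 207819_PM_s_at (-0.30, adjusted p = 0.0764), which passed under the last pair of these (0.0400 and 0.0256) and without the P3 array at 10 µM (0.0470). At 3 µM ABCB1 was 0.44 ± 0.08 above them (limma, adjusted p = 0.0150), where 0.0822% of all probe sets passed (0.0603% higher).

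In the 2,4-D set ABCB4 207819_PM_s_at fell by 0.35 (SE 0.07, limma, adjusted p = 0.0158) against 15 arrays that ranged from 8.13 to 8.43 log2. The call was lost without all P1 (0.335), all P2 (0.261) or all P3 arrays (0.134), without the P1 (0.0938) or P2 array (0.112) at 10 µM, and with array weights (0.0909).

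The chemicals were also compared directly, on values relative to DMSO of the same set, in 3 pairs at 10 µM and 3 at 3 µM. The DMSO means were subtracted as fixed numbers, so the intervals and p values of these pairs hold no error of the DMSO means. For ABCG2 the same DMSO arrays differed between sets by up to 0.47 log2. Fenbuconazole minus imazalil gave 1 member called at 10 µM, where 0.269% of all probe sets passed: ABCG2 was -0.95 (95% interval -1.27 to -0.62, limma, adjusted p = 0.000239), so lower with the triazole, a call lost without all P2 arrays (0.495). For ABCB1 that difference was -0.35 (-0.57 to -0.12, adjusted p = 0.314) and for ABCG5 -0.19 (-0.48 to 0.11), and neither passed after adjustment, the intervals being those of single tests.

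Fenbuconazole minus 2,4-D called ABCB1 alone (0.53 ± 0.11, SE, limma, adjusted p = 0.00532), where 0.356% of all probe sets passed, and the call was lost without all P1 (0.0899) or all P2 arrays (0.343). Imazalil minus 2,4-D called 4, where 0.389% passed: ABCG2 1.29 ± 0.16 (1.38e-07), ABCB1 209993_PM_at 0.88 ± 0.11 (1.57e-07), ABCB1 243951_PM_at 1.49 ± 0.27 (0.000556) and ABCC2 0.60 ± 0.13 (0.0151). The ABCC2 call was lost without all P1 (0.0675), P2 (0.314) or P3 arrays (0.0631). At 3 µM 0 members passed in each of the 3 pairs, where 0.0274% (fenbuconazole minus imazalil), 0.00548% (fenbuconazole minus 2,4-D) and 0.0658% (imazalil minus 2,4-D) of all probe sets passed.

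**Figure D4:**
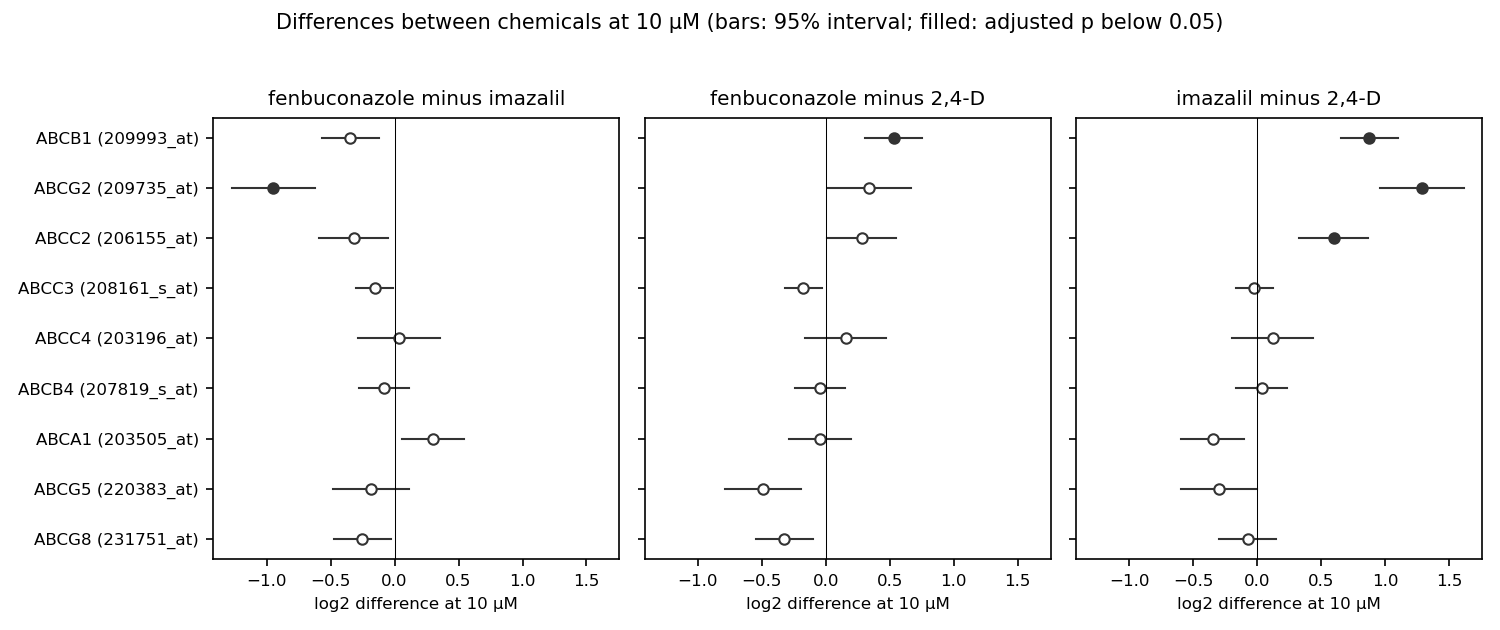
Difference between chemicals at 10 µM in log2 value relative to DMSO of the same set, for 1 probe set of each of 9 members, with 95% confidence intervals from limma. ABCG2 differed between fenbuconazole and imazalil by -0.95 and between imazalil and 2,4-D by 1.29.

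Likeness was measured by Pearson's r over the 27 treated group means, centred within each RMA set. The points of a chemical share its RMA set. Each probe set matched to other genes below had passed against DMSO at the top concentration of a fungicide. Those groups are among the 27 means, so other genes that changed in them can reach a high r. Whether the likeness holds without those groups was not tested. ABCB1 209993_PM_at was closest to CYP3A43 (0.967), CYP3A7 (0.967) and CYP3A4 (0.958). Whether the probe sets of these CYP3A genes read separate transcripts was not tested. ABCB1 243951_PM_at was closest to the biliary marker SPP1 (0.868), with PTGR1 (0.859) and IDH1 (0.857) next. For ABCG2 the genes were SULT2A1 (0.907), IMPA2 (0.886) and AKR1B10 (0.872). For ABCC2 they were CYP1A1 (0.961), ABCB1 (0.952) and POR (0.951). For ABCG5 they were ANG (0.923), SPP2 (0.922) and the hepatocyte marker AHSG (0.918). Among members r was 0.952 for ABCB1 209993_PM_at and ABCC2, 0.865 for ABCB1 and ABCG2, 0.656 for ABCG5 and ABCG8, and -0.865 for ABCB1 and ABCG5. ABCG5 was closer to ABCC3 208161_PM_s_at (0.825) and ABCB4 207819_PM_s_at (0.754) than to ABCG8. ABCG8 was closer to the same ABCB4 probe set (0.821) than to ABCG5. The 2 ABCB1 probe sets gave 0.776 with each other.

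Genes known to respond to the receptors that sense foreign chemicals were also measured, and the values here are against DMSO unless stated. Of 13 measured PXR and CAR targets other than ABC genes, 5 rose with 10 µM fenbuconazole and 11 with imazalil, CYP3A4 by 2.23 and 2.70 log2, and 0 passed with 2,4-D. Against the pooled low concentrations CYP3A4 (0.55) and CYP3A7 (0.56) rose with 2,4-D. Both chemicals raised 2 of 5 AHR targets, CYP1A1 by 2.35 and 5.41. Sterol synthesis genes under SREBP2 rose in 12 of 13 with fenbuconazole and 2 of 13 with imazalil. All 13 values were positive with imazalil (median 0.25), and 5 of 13 passed as higher against the pooled low concentrations. Of 12 measured LXR targets, FASN, the fatty acid synthase, rose with fenbuconazole (0.73), and 0 passed with imazalil, where FASN rose against the pooled low concentrations (0.53). Of 9 NRF2 targets, 1 rose with fenbuconazole and 2 with imazalil, SLC7A11 by 0.85 and 0.84. Against the pooled low concentrations 4 of 9 rose with each fungicide. Of 10 FXR and PPARA targets, 2 fell with fenbuconazole, CYP4A11 by 1.11 and ANGPTL4 by 0.60, and 1 with imazalil, CYP4A11 by 1.48. Of 35 other ABC family genes measured, 0 passed with any chemical against DMSO, and ABCC11 was lower with imazalil against the pooled low concentrations (-0.44, limma, adjusted p = 0.0422).

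Single markers of cell types passed at 10 µM against DMSO beside the members, while most of their lists did not. Of 6 biliary markers SPP1 alone passed, higher by 0.53 log2 with fenbuconazole and 0.86 with imazalil, and the list had 4 and 3 positive values with medians of 0.10 and 0.18. Of 10 hepatocyte markers AHSG alone passed, lower by -0.83 and -1.26, and the list had 3 and 2 positive values with medians of -0.08 and -0.07. Of 5 immune markers CD3D was lower by -0.82 and -1.15, and with imazalil CD14 was higher by 0.88 while the list median was -0.14. Of 7 mesenchyme markers COL3A1 was lower with imazalil by -0.82, with 4 positive values and a median of 0.04. None of 5 endothelium markers passed. The biliary list mean was 5.35 to 5.43 log2 in the 10 µM imazalil arrays, against 5.13 to 5.25 in DMSO. It also reached 5.26 to 5.43 at 0.001 µM and 5.25 to 5.43 at 1 µM imazalil, so the gap to DMSO was not particular to 10 µM. The hepatocyte list mean was 11.39 to 11.58 in the 10 µM imazalil arrays, against 11.68 to 11.76 in DMSO. In the 10 µM fenbuconazole arrays it was 11.44 to 11.70, overlapping the 11.69 to 11.76 of DMSO. These list means include AHSG, the only hepatocyte marker that passed. The part of these markers in the ABCB1, ABCG2 and ABCG5 differences was not tested. In bulk cultures fewer cells of a type and less RNA per cell cannot be told apart.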

How the data were processed

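HepaRG RNA was hybridized to Affymetrix HT HG-U133+ PM arrays, and the deposited table holds log2 intensities that the authors normalized by RMA, separately for each chemical with the 3 common DMSO arrays. RMA and Partek are named in the submitters' processing notes without a version. The table held 54715 probe sets in 90 columns, 81 treated and 9 for 3 DMSO arrays.

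From these log2 values a group means model was fitted per chemical in limma 3.58.1 (R 4.3.3) over 30 arrays, with eBayes and Benjamini-Hochberg adjustment over all probe sets, threshold 0.05. Contrasts were each concentration with DMSO, 10 µM with the pooled 5 lowest concentrations, a moderated F over 9 contrasts, and pairs of chemicals on values relative to DMSO of the same set. Figures used matplotlib 3.10.9. All 10 members were to be named, and members and lists were chosen with earlier results of these data known. The fit was tested on simulated data. The methods describe replicates as independent experiments made with separate batches of cells. Alternatives were quantile normalization, a filter on dim probe sets, a trended and robust variance, array weights, gene means, the P code as a block and leaving out arrays. With 3 arrays per group, their number limits the precision.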

Additional observations from a re-analysis of the deposited data

Results flagged for a closer look

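Differences between the chemicals at 10 µM that passed the test of the difference itself (limma, adjusted over all probe sets) were 6 in number. ABCG2 stood -0.95 log2 in fenbuconazole minus imazalil (adjusted p = 0.000239). ABCB1 209993_PM_at stood 0.53 in fenbuconazole minus 2,4-D (0.00532) and 0.88 in imazalil minus 2,4-D (1.57e-07). ABCB1 243951_PM_at stood 1.49 (0.000556), ABCC2 0.60 (0.0151) and ABCG2 1.29 (1.38e-07) in imazalil minus 2,4-D. The chemicals share the 3 DMSO arrays, and each set was normalized separately. These p values hold no error of the DMSO means.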

How the results depend on the processing

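No member reversed its direction among called values. Counts of member probe sets that passed moved by over 1.5 times as follows. A trended and robust variance gave 4 for fenbuconazole against DMSO (2 as reported) and 8 for imazalil against the pooled low concentrations (5 as reported). Gene means gave 1 for the fenbuconazole F (2) and 0 for 2,4-D against the pooled low concentrations (1), array weights gave 4 for the imazalil F (2) and 0 for 2,4-D against the pooled low concentrations (1), and quantile normalization gave 1 for imazalil minus 2,4-D at 3 µM (0). Smaller shifts against DMSO were 3 for fenbuconazole under quantile normalization, the dim filter and gene means, and 3 for imazalil under quantile normalization and array weights. Counts under gene means are of 9 genes and not of 22 probe sets. For imazalil against DMSO gene means gave 3 genes, and the 4 probe sets as reported also belong to 3 genes. Leaving out replicates gave 0 to 2 for fenbuconazole against DMSO, 0 to 2 for its F, 0 to 5 against pooled low concentrations, 1 to 4 for imazalil against DMSO, 0 to 2 for its F, 2 to 6 against pooled low concentrations, 0 to 1 for 2,4-D against pooled low concentrations, 0 to 1 for fenbuconazole minus imazalil, 0 to 1 for fenbuconazole minus 2,4-D and 3 for imazalil minus 2,4-D at 10 µM. Without the 2 arrays of 2,4-D that share a sample code, an alternative chosen after seeing the data, the 2,4-D count stayed 1. The cause of these shifts was not tested.

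The labels do not say what the P code marks. Arrays with the same code had a mean correlation of deviations of 0.0979, 0.0940 and 0.117 in the fenbuconazole, imazalil and 2,4-D sets. For arrays of other codes it was -0.0489, -0.0468 and -0.0582. In the 2,4-D set, arrays with the same replicate number in the title gave 0.000718. Not every pair of the same code was over 0.1 (73, 70 and 81 of 135). The best partner of an array had its own code for 22, 23 and 26 of 30 arrays. With the code as a replicate block the counts were 3 for fenbuconazole against DMSO, 5 for imazalil against DMSO, 8 for imazalil and 2 for 2,4-D against pooled low concentrations, 3 for fenbuconazole minus imazalil, 3 for fenbuconazole minus 2,4-D and 5 for imazalil minus 2,4-D at 10 µM, and at 3 µM 1 for fenbuconazole minus imazalil and 2 for imazalil minus 2,4-D. In that fit ABCG8 with fenbuconazole (adjusted p = 0.0158) and ABCG5 with imazalil (0.0288) also passed against DMSO. Between chemicals the block added ABCB1 (0.00322) and ABCC2 (0.0109) in fenbuconazole minus imazalil, ABCC2 (0.0410) and ABCG5 (0.0425) in fenbuconazole minus 2,4-D and ABCA1 203504_PM_s_at (0.00173) in imazalil minus 2,4-D at 10 µM, and at 3 µM ABCB1 in fenbuconazole minus imazalil (0.0356) and ABCB1 (3.68e-05) and ABCG2 (0.0432) in imazalil minus 2,4-D. Against the pooled low concentrations the block added ABCA1 203504_PM_s_at (0.00598), ABCA1 203505_PM_at (0.0416) and ABCB4 (0.0437) with imazalil, as a trended and robust variance did (0.0162, 0.0461 and 0.0256), ABCC2 (0.00851) with fenbuconazole and ABCB1 (0.0126) with 2,4-D.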
